A study of Mus musculus with 8 samples.

Results

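The genes followed here mark the 2-cell-like state of mouse pluripotent cells: Zscan4c, Zscan4d, Zscan4f, Tcstv1, Tcstv3, Zfp352, Calcoco2, Sp110, Arg2 and Ddit4l. Their RNA was read in 8 clones of induced pluripotent stem (iPS) cells, each on an Affymetrix mouse 430_2 array of its own. Members were every probe set (the group of short probes that reads a transcript) annotated to exactly 1 of these 10 symbols, dim ones included. The rule gave 13 of 45037 probe sets, for 7 of the 10 genes. Zscan4c, Zscan4d and Zscan4f had 0 such probe sets. They are read together by a further probe set, annotated jointly to 4 Zscan4 genes and 2 uncharacterised loci, which is reported beside the members as the shared Zscan4 probe set and names no single gene.

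The clones were derived from embryonic fibroblasts (MEFs) of Col-OKSM reprogrammable mice, in which doxycycline induces Oct4, Sox2, Klf4 and cMyc. Clones 1 to 4 of one group were derived with ascorbic acid and clones 1 to 4 of the other group without it. Both groups had serum, LIF and doxycycline in the medium and irradiated MEF feeder cells beneath them, and feeders were reduced by preplating before RNA was taken. The labels call the clones biological replicates without saying whether they came from separate embryos or cultures, so each p-value reflects only how far these clones spread, which may be technical.

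In cultures of mouse pluripotent cells a few cells at a time pass through a state that resembles the 2-cell embryo, when the zygotic genome is first transcribed. The transcription factor Dux opens the programme, the Zscan4 proteins act within it on telomeres and genome stability, and chromatin repressors keep most cells out of it. Such cells are rare and come and go, so a bulk sample reads their number and their RNA content together. Fewer such cells and less RNA per cell cannot be told apart in these arrays.

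Signals of 94 or more, averaged over the clones, were treated as above the dim limit, which 60.9% of all probe sets reached. Of the 13 member probe sets 6 were above it, for Calcoco2, Ddit4l, Zfp352 and Sp110, and 7 were below. The members nearest to the limit were a Zfp352 probe set with a mean of 105 and an Arg2 probe set with a mean of 65.5. The array medians were 134 to 156, and the actin 3'/5' ratio, which rises as RNA degrades, lay between 1.14 and 1.28. The pluripotency markers Pou5f1, Nanog and Sox2 gave a signal of at least 8281 in every clone, and all 10 pluripotency markers on the list were above the dim limit. These 10 were all lower with ascorbic acid, with a median log2 difference of -0.116, and 0 passed in limma over all probe sets (percentage over all genes 0.0110) or had an unadjusted p under 0.05 (5.61% over all genes). Pou5f1 (Oct4), Sox2 and Klf4 are also among the factors that doxycycline induces in these cells. The part of the transgenes in their signal was not tested. Fibroblast and feeder markers were also read: 26 of 27 were above the dim limit, only Lum below it, and their summed signal ran from 59087 to 72473 in clones with ascorbic acid and from 68933 to 73997 in those without. Of these markers 22 were lower and 5 higher with ascorbic acid, with a median log2 difference of -0.177, where 8706 of all 18193 genes were higher and 9487 lower, with a median of -0.007. None of these markers passed in limma (percentage over all genes 0.0110), while 9 of 27 had an unadjusted p under 0.05 (5.61% over all genes). Groups did not overlap for 2, Postn and Fstl1 (3.12% over all probe sets). The part of residual feeder RNA in the values below was not tested.

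No member passed the test between clones derived with and without ascorbic acid. In limma, 0 of the 13 member probe sets passed an adjusted p of 0.05 (the percentage over all probe sets was 0.0244), and 0 had an unadjusted p under 0.05 (5.37% over all). The lowest unadjusted p among them was 0.0788, for Calcoco2, and their adjusted p was at least 0.937. All 13 had overlapping groups, where 3.12% of all probe sets had groups that did not overlap. Of the 13, 6 were higher and 7 lower with ascorbic acid, with a median log2 difference of -0.003 against -0.015 over all probe sets.

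**Figure D1:**
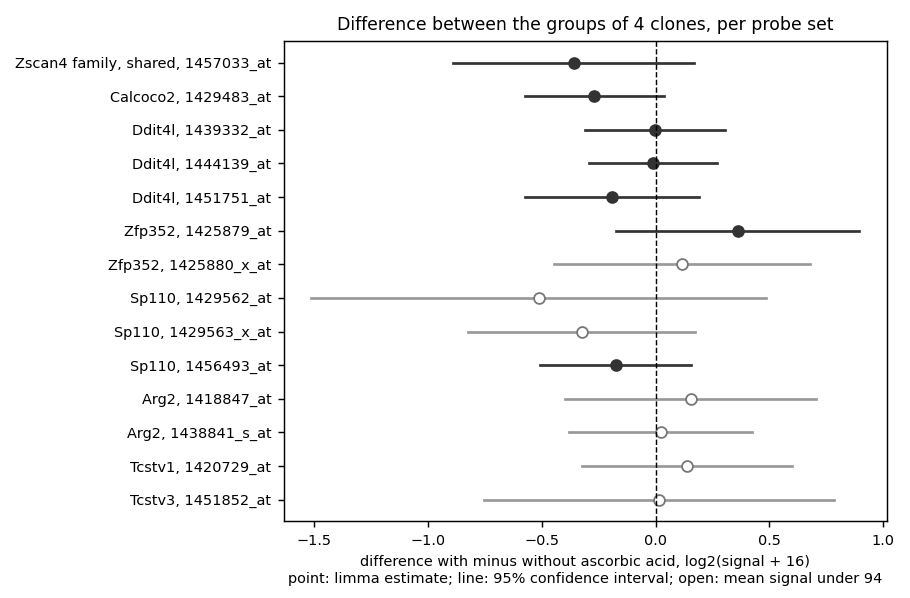
Difference between clones with and without ascorbic acid for the 13 member probe sets and the shared Zscan4 probe set, on the log2(signal + 16) scale, as the limma estimate with its 95% confidence interval (n = 4 clones per group); open points have a mean signal under 94. Every interval includes 0, and the widest runs from -1.51 to 0.485 for a dim Sp110 probe set.

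The members varied from clone to clone. Zscan4 proteins carry a SCAN domain and zinc fingers and are the best known markers of the state. The shared Zscan4 probe set read 235, 218, 272 and 106 in clones 1 to 4 with ascorbic acid. It read 240, 303, 269 and 223 in clones 1 to 4 without it. Clone 4 with ascorbic acid stood below all others, at 43.8% of the mean of the other 3 clones of its group, while the remaining clones ran from 218 to 272 with ascorbic acid and from 223 to 303 without. The group difference was -0.358 ± 0.240 log2 (SE; 95% interval -0.888 to 0.171; limma, adjusted p = 0.937). Without clone 4 with ascorbic acid it was -0.089.

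The upstream regions of the 3 Zscan4 genes were set side by side. The shared probe set reads transcripts and not these bases, so the comparison does not show how alike those transcripts are. The 250 bases before each gene's start follow, 5′ to 3′ on the gene's own strand, from RefSeq on GRCm38.p6: Zscan4c at chr7:11005495-11005744 (plus strand), Zscan4d at chr7:11166149-11166398 (minus strand) and Zscan4f at chr7:11397665-11397914 (plus strand). Capitals mark TGATTNAAT, the first 9 letters of the Dux motif.
Zscan4c: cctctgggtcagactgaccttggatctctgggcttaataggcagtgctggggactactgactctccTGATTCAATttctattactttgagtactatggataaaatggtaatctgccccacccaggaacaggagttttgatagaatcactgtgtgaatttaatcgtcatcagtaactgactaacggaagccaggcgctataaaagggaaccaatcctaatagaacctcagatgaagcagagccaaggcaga
Zscan4d: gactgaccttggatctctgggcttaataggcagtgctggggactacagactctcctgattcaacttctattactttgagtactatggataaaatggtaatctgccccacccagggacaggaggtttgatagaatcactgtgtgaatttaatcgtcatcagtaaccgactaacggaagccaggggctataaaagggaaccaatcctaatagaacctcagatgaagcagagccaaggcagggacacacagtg
Zscan4f: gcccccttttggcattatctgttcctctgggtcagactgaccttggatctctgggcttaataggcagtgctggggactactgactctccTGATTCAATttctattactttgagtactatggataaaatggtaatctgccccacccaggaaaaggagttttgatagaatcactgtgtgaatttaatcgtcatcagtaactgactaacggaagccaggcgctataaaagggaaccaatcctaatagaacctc
Over the stretch that both windows hold, Zscan4c and Zscan4f were identical at 226 of 227 bases, Zscan4c and Zscan4d at 232 of 239, and Zscan4d and Zscan4f at 209 of 216, with 0 gaps. The whole motif, which goes on with CA to 11 letters, was searched on either strand and was in 0 of the 7 member windows in the table and in 0.0304% of 32851 windows of the same length. Its first 9 letters, a search added after the sequences were seen, lay in 0.658% of all windows and in those of Zscan4c and Zscan4f, 184 and 161 bases before the start. The Zscan4d window did not hold these letters. The Zscan4 motif TGCACAC, searched on both strands, was in 3.67% of all windows and in 0 of the member windows. The 7 windows belong to Zscan4c, Zscan4d, Zscan4f, Zfp352, Ddit4l and, with 2 start sites, Sp110.

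Calcoco2, also called NDP52, is a receptor that brings cargo to autophagosomes. Its probe set read 305, 290, 333 and 218 in clones 1 to 4 with ascorbic acid. Without it the clones read 337, 404, 335 and 309. Clone 4 with ascorbic acid was again the lowest of all 8 and clone 2 without it the highest, the same clones at both ends as for the shared Zscan4 probe set. The mean signal was 287 ± 49.0 in the group with ascorbic acid and 346 ± 40.5 in the group without (SD, n = 4 each), and the log2 difference was -0.268 ± 0.138 (SE; 95% interval -0.572 to 0.037; limma, adjusted p = 0.937). Without clone 4 with ascorbic acid it was -0.150.

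Ddit4l, also called REDD2, restrains the growth kinase mTOR, and 3 probe sets read it, all above the dim limit. The probe set 1444139_at read 691, 713, 744 and 478 in clones 1 to 4 with ascorbic acid and 617, 724, 635 and 636 without. The probe set 1451751_at read 510, 528, 628 and 316 with and 500, 625, 530 and 557 without. The probe set 1439332_at read 409, 417, 409 and 270 with and 394, 383, 327 and 386 without. Clone 4 with ascorbic acid was the lowest of the 8 clones on all 3 probe sets, at 56.8% to 66.8% of the mean of the other 3 clones of its group. Between the groups the log2 differences were -0.009 ± 0.127, -0.190 ± 0.173 and -0.003 ± 0.139 (SE) in the same order, and the limma adjusted p was at least 0.955 for each. Without clone 4 with ascorbic acid the differences were 0.133, 0.005 and 0.142, so the sign turned on all 3.

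**Figure D2:**
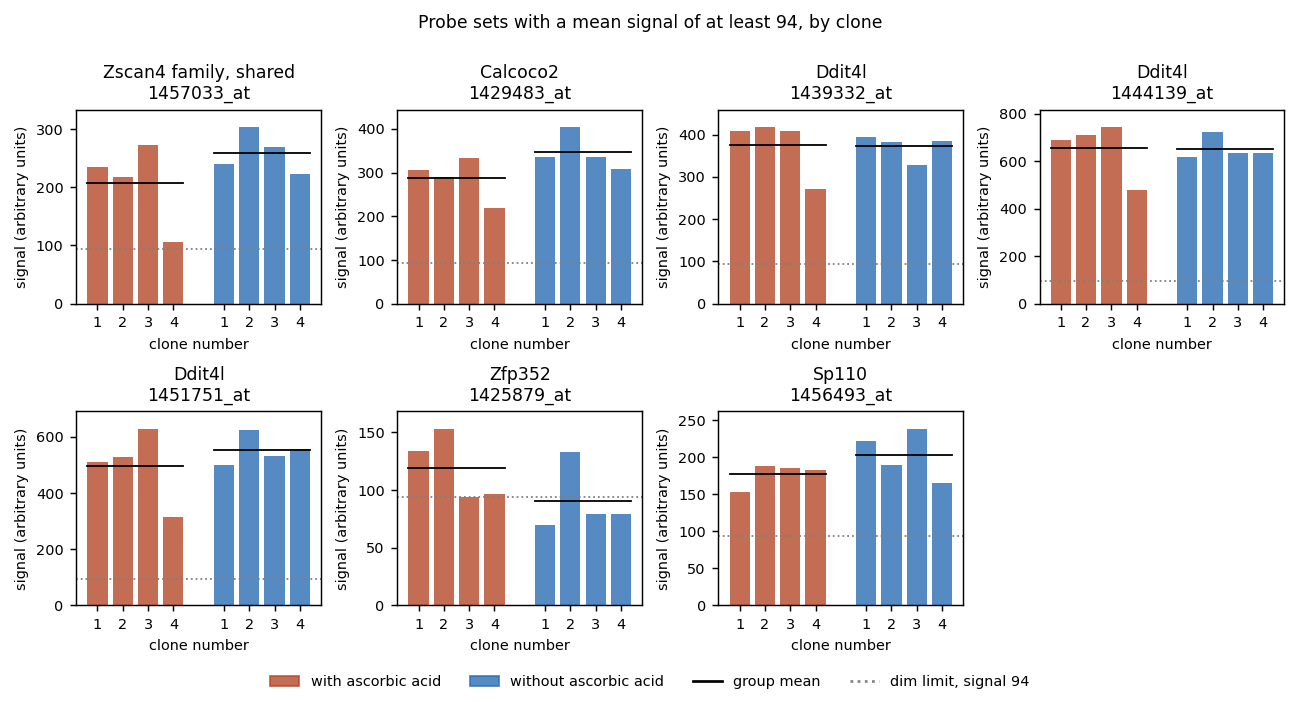
Signal by clone (bars) for the shared Zscan4 probe set and the 6 member probe sets with a mean of at least 94, with ascorbic acid on the left and without on the right of each panel; black lines are group means (n = 4 clones each) and the dotted line is the dim limit. Clone 4 with ascorbic acid has the lowest bar for the shared Zscan4 probe set, Calcoco2 and all 3 Ddit4l probe sets, and not for Zfp352 or Sp110.

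The drop in clone 4 with ascorbic acid did not extend to the array as a whole. It was the lowest clone in 4 of the 6 member probe sets above the dim limit, 3 of which read the same gene, Ddit4l, against 12.6% of all 27435 probe sets above that limit. Its log2 signal minus the mean of the other 3 clones of its group was -1.08 for the shared Zscan4 probe set, -0.471 for Calcoco2 and -0.780 to -0.567 for Ddit4l. Over the probe sets above the dim limit the same quantity had a median of 0.017, with -0.377 and 0.484 as the 5th and 95th percentiles. The comparison was made after the values were seen and is a description. The array of this clone had a median signal of 151 and an actin ratio of 1.25, both inside the range of the others. Its fibroblast and feeder markers summed to 59087, the lowest of all, and those of clones 1 to 3 with ascorbic acid to 60966, 72473 and 60613. The part of feeder RNA in the low values was not tested.

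Zfp352, a zinc finger gene transcribed in the 2-cell embryo, had another order of clones. Its brighter probe set read 134, 153, 93.6 and 96.9 in clones 1 to 4 with ascorbic acid and 69.4, 133, 79.1 and 79.3 without. Clones 1 and 2 with ascorbic acid and clone 2 without it were high, and 4 of the 8 clones were under 94. The group difference was 0.361 ± 0.242 log2 (SE; 95% interval -0.172 to 0.894; limma, adjusted p = 0.937). The other Zfp352 probe set, of the _x_at class that can read several transcripts, was below the dim limit at 34.8 to 73.3 and also highest in clone 2 without ascorbic acid.

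Sp110 encodes an interferon-inducible protein of nuclear bodies. Its 1 probe set above the dim limit read 154, 189, 185 and 182 in clones 1 to 4 with ascorbic acid and 222, 189, 238 and 165 without. The highest values, 222 and 238, were both without ascorbic acid, and the groups overlapped. The log2 difference was -0.175 ± 0.150 (SE; 95% interval -0.506 to 0.157; limma, adjusted p = 0.954). The other 2 probe sets were dim and also lower with ascorbic acid, at -0.513 ± 0.453 and -0.324 ± 0.226 log2 (SE; limma, adjusted p = 0.955 and 0.938). Leaving out clone 1 without ascorbic acid moved the first of these to -0.193, and leaving out clone 4 with ascorbic acid moved it to -0.907.

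The remaining members were below the dim limit in the mean. Arg2, the mitochondrial arginase, read 46.1, 64.3, 99.7 and 71.9 in clones 1 to 4 with ascorbic acid and 43.6, 67.0, 67.0 and 64.7 without on its brighter probe set, and at most 9.45 on the other. Tcstv1 and Tcstv3 belong to a gene group named for its variable transcripts at the 2-cell stage. Tcstv1 read 3.86 to 21.2 over the 8 clones. Tcstv3 read 27.3, 4.30, 5.26 and 30.1 in clones 1 to 4 with ascorbic acid and 9.69, 10.1, 7.28 and 36.9 without. Clones 1 and 4 with and clone 4 without ascorbic acid were the high ones for Tcstv3, at levels where the arrays hold little signal. For these probe sets the 95% intervals of the log2 difference ended at -0.751 to -0.321 on the low side. On the high side they ended at 0.425 to 0.782, so differences inside each probe set's interval were not excluded.

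**Figure D3:**
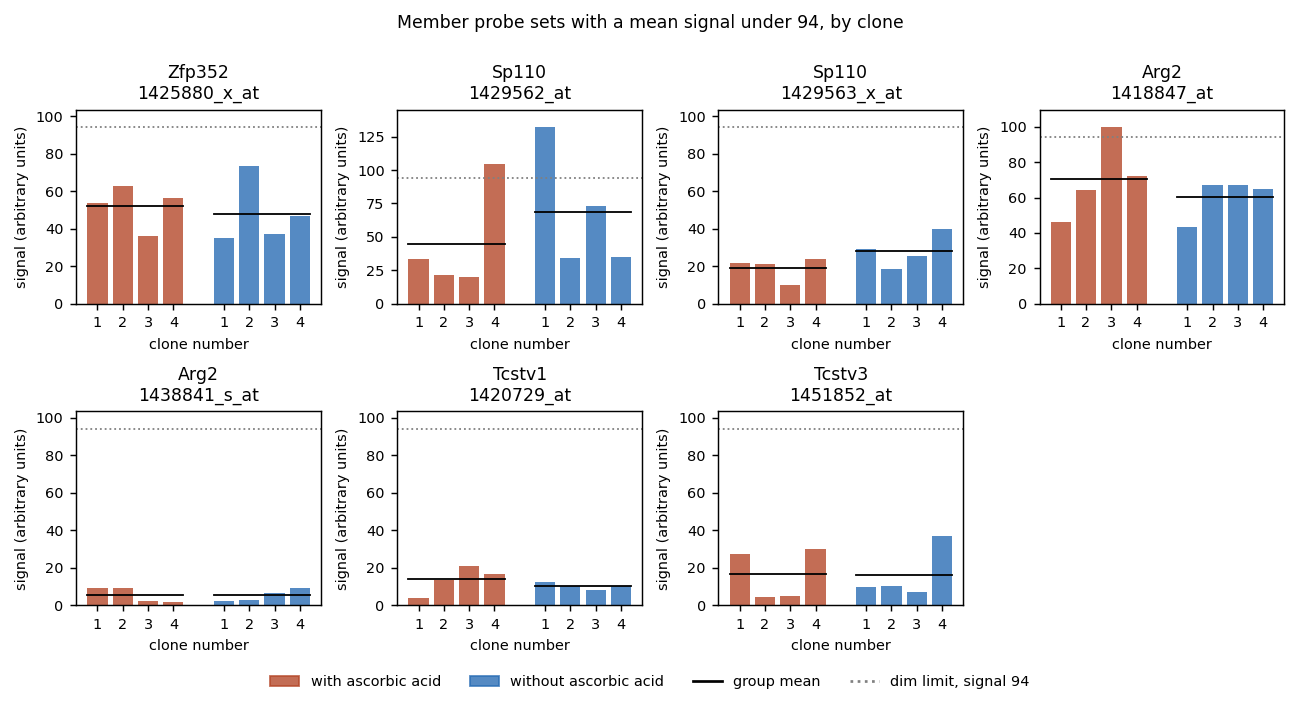
Signal by clone (bars) for the 7 member probe sets with a mean under 94, with ascorbic acid on the left and without on the right of each panel; black lines are group means (n = 4 clones each) and the dotted line is the dim limit. Tcstv1, Tcstv3 and the second Arg2 probe set stay under 40 in every clone, while single clones of Sp110 and Arg2 reach 132 and 99.7.

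Whether the members rose and fell together over the 8 clones was asked by setting each of the 7 genes, by its brightest probe set, against the shared Zscan4 probe set. Calcoco2 followed it closely, with a Pearson r of 0.952 (exact permutation p = 0.000496, adjusted over the 7 relations 0.00347). Such an r was not particular to the members. Among 13260 other genes above the dim limit, some had a higher r with the same probe set, such as Cul2 (0.976) and Parvb (0.958). How many of these genes reached 0.952 was not counted. The Spearman rho of Calcoco2 was 0.881 (exact permutation p = 0.00724, adjusted 0.0507). The 2 clones farthest from the Zscan4 median were clone 4 with and clone 2 without ascorbic acid. Without them r was 0.821 over 6 clones and did not pass the threshold (exact permutation p = 0.0736). Whether this came from those clones or from the smaller number of clones was not tested. Leaving out clone 4 with ascorbic acid alone gave r = 0.908 over 7 clones (exact permutation test, adjusted p = 0.0278). Taken as deviations from each group's mean, r was 0.954.

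For Ddit4l the relation rested on clone 4 with ascorbic acid. Its r was 0.876 (exact permutation p = 0.0270, adjusted 0.0944) and its rho 0.548 (exact permutation p = 0.171, adjusted 0.567). Without the 2 farthest clones r was 0.115, and without clone 4 with ascorbic acid alone 0.347. As deviations from each group's mean r was 0.969 (permutation test, adjusted p = 0.00182), with that clone included. This test shuffled clones across both groups and did not allow for the centring, so its p may be too small. Against Calcoco2, the 3 Ddit4l probe sets had r of 0.609, 0.760 and 0.887, given as a description.

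The other 5 genes did not follow the shared Zscan4 probe set by this test. The r was 0.215 for Sp110, 0.0538 for Zfp352, -0.0243 for Arg2, -0.278 for Tcstv1 and -0.539 for Tcstv3, with rho of 0.476, -0.262, 0.238, -0.119 and -0.310 in the same order. The exact permutation p was at least 0.139 for r and 0.243 for rho, and after adjustment at least 0.324 and 0.567. Arg2 and both Tcstv genes were below the dim limit, where a shared pattern would be hard to see. Without the 2 farthest clones their r, in the same order, was 0.498, -0.432, 0.502, 0.278 and -0.449.

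**Figure D4:**
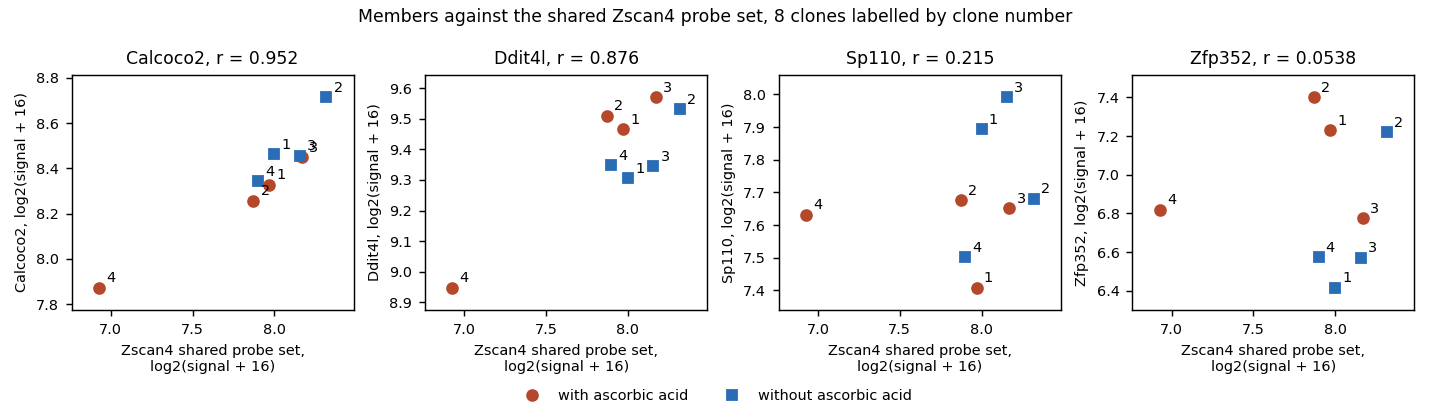
Calcoco2, Ddit4l, Sp110 and Zfp352 (brightest probe set of each) against the shared Zscan4 probe set, both as log2(signal + 16), with each of the 8 clones marked by its number and group. Calcoco2 rises with Zscan4 over all clones (r = 0.952), Ddit4l sits apart only in clone 4 with ascorbic acid (r = 0.876, and 0.347 without that clone), and Sp110 and Zfp352 show no such line.

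The members above the dim limit varied somewhat more within groups than most probe sets of that kind. The median within-group SD was 0.218 log2 over these 6 and 0.172 over all 27435. Below the limit the order was the other way, 0.309 over the 7 members and 0.415 over 17602 probe sets. For the shared Zscan4 probe set it was 0.411, and for the Ddit4l probe sets, 3 of the 6, it was 0.215 to 0.305. Members and all probe sets were not matched for signal in these comparisons.

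Among 13260 other genes above the dim limit, the 5 whose pattern over the 8 clones was most like that of the shared Zscan4 probe set were Cul2, Alg12, Nhlrc1, Coch and Parvb. Their r was 0.976, 0.963, 0.962, 0.960 and 0.958, the highest of many and therefore a description. Cul2, a scaffold of ubiquitin ligases, read 2933, 2854, 2996 and 2573 in clones 1 to 4 with ascorbic acid and 2985, 3163, 3047 and 2908 without. Nhlrc1, which encodes the ubiquitin ligase malin, read 141, 138, 146 and 84.6 with and 136, 151, 134 and 123 without. All 5 were lowest in clone 4 with ascorbic acid. Without that clone the r of Cul2 was 0.954 and that of the other 4 was 0.692 to 0.787.

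No further gene of the programme on the lists passed the test between the groups. Of 38 further transcripts of the 2-cell stage on the list 7 had a probe set of their own, 2 of them above the dim limit. Of these 7, 5 were higher and 2 lower with ascorbic acid, 0 passed in limma (percentage over all genes 0.0110), and 1 had an unadjusted p under 0.05 (5.61% over all genes). Ubtfl1, a relative of the nucleolar factor Ubtf, read 34.1, 7.86, 12.2 and 20.9 in clones 1 to 4 with ascorbic acid and 7.65, 12.6, 3.23 and 5.01 without, all dim (0.547 ± 0.245 log2, SE; limma, adjusted p = 0.925). AF067061, also dim in the mean, read 90.0, 120, 59.3 and 18.3 with and 38.3, 80.0, 21.6 and 27.2 without (0.534 ± 0.435 log2, SE; limma, adjusted p = 0.949). Neither passed after adjustment, and the groups overlapped in both.

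Of 10 activators of the state 4 were higher and 6 lower with ascorbic acid, with a median log2 difference of -0.064, against -0.007 over all genes. In limma 0 passed the threshold (percentage over all genes 0.0110), and 1 had an unadjusted p under 0.05 (5.61% over all genes). Nr5a2, an orphan nuclear receptor, read 759, 692, 745 and 609 in clones 1 to 4 with ascorbic acid and 979, 867, 682 and 818 without. Clone 4 with ascorbic acid was the lowest for Nr5a2, but for no other activator read. The groups overlapped, and the log2 difference was -0.243 ± 0.110 (SE; limma, adjusted p = 0.929). Obox2, an oocyte homeobox gene, was dim and had a difference of -0.563 ± 0.371 (SE; limma, adjusted p = 0.937). Duxf3, the Dux gene itself, named after its values were seen, was below the dim limit, at 86.2 ± 17.8 (SD, n = 4) with ascorbic acid and 80.8 ± 20.2 (SD, n = 4) without it (adjusted p = 0.991 in limma).

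Repressors were well above the dim limit in all 26 genes read. Of them 13 were higher and 13 lower with ascorbic acid, with a median log2 difference of -0.011, against -0.007 over all genes. In limma 0 passed the threshold (percentage over all genes 0.0110), and 1, Smchd1, had an unadjusted p under 0.05 (5.61% over all genes). Smchd1, a chromatin protein of the inactive X chromosome and of Dux-related repeats, read 1550, 1322, 1421 and 1619 in clones 1 to 4 with ascorbic acid and 1208, 1458, 1240 and 1144 without. The groups overlapped, and the difference was 0.227 ± 0.0876 log2 (SE; limma, adjusted p = 0.907). Ncl, the nucleolar protein nucleolin, was at -0.169 ± 0.0949 (SE; limma, adjusted p = 0.937).

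**Figure D5:**
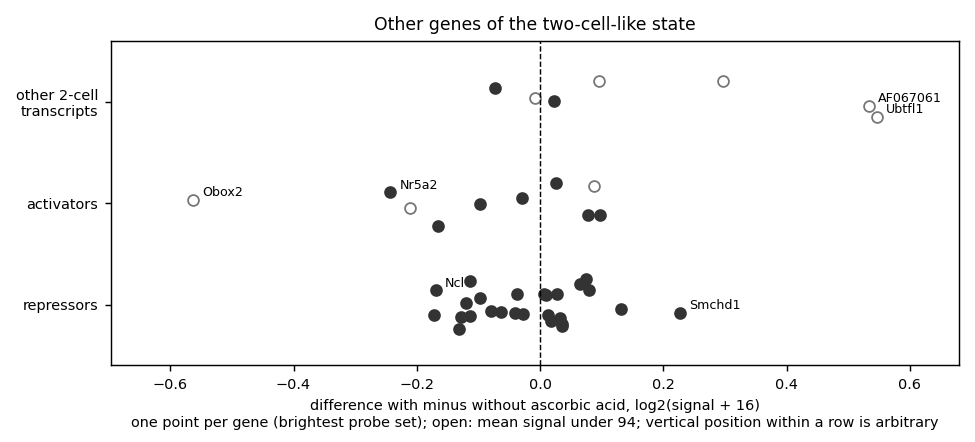
Difference with minus without ascorbic acid, on the log2(signal + 16) scale, for other 2-cell transcripts (7 genes), activators (10) and repressors (26) of the state, 1 point per gene; open points have a mean signal under 94. The repressors lie within 0.227 of 0, and the farthest points, Ubtfl1, AF067061 and Obox2, are dim.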

How the data were processed

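The authors deposited 1 linear signal intensity for each probe set. The submitters' processing notes name GCOS, without a version; the algorithm is not given in the sources used here. These deposited values show each array scaled to a mean of 500 after trimming 2% at each end. All 8 columns were matched to clones by the labels. After leaving out 64 control probe sets, 45037 remained: 34945 with 1 symbol, 932 with several and 9160 without. Signals were transformed as log2(signal + 16), which understates changes of dim genes, and no filter was used. Groups were compared in limma 3.58.1 (R 4.3.3; lmFit, eBayes with an intensity trend), two-sided; p was adjusted by Benjamini-Hochberg over all probe sets, with a threshold of 0.05. Correlations used exact permutation over pairings of clones, two-sided, which is only approximate for deviations from group means. The brightest probe set stood for a gene in lists. Every member probe set is named; from the lists of other 2-cell transcripts, activators and repressors, the members past the threshold or else the 2 with the smallest p; and the 5 genes most like the shared Zscan4 probe set. Members and lists were chosen with earlier results of these data known. The fit was tested on simulated data. Alternatives were pseudocounts of 1 and 64, quantile normalization, median centring, a 40% filter on dim probe sets, 1 probe set per gene, no _s_at or _x_at probe sets, other variance models, array weights, a replicate block and leaving out each clone. The number of arrays limits the precision.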

Additional observations from a re-analysis of the deposited data

Results flagged for a closer look

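Of 28 groups of 4 clones, from the 13 member probe sets and the shared Zscan4 probe set, 6 (21.4%) held a clone far from the other 3, where chance gives about 5% and the same measure held for 6.81% of the groups over all probe sets. The 28 groups are not independent, since several probe sets read the same gene in the same clones. The Ddit4l probe set 1439332_at gave 2 of them: clone 4 with ascorbic acid read 270.1, against 408.5 to 417.3 in the others of its group, and clone 3 without read 327.2, against 383.0 to 394.3. On the brighter Zfp352 probe set clone 2 of the group without ascorbic acid read 132.9, the others 69.4 to 79.3. The other 3 were in dim probe sets. For Arg2, clone 1 of the group without ascorbic acid read 43.62, the others 64.7 to 67.0, and Sp110 read 104.8 in clone 4 with ascorbic acid on 1429562_at, against 20.2 to 33.2. For Tcstv3, clone 4 of the group without it read 36.87 and the others 7.28 to 10.1.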

How the results depend on the processing

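In each of the 19 alternatives 0 member probe sets passed the threshold. With the clone number as a replicate block the count was also 0, and 9 probe sets passed in all against 11 without the block. Deviations of same-numbered clones correlated at -0.152 to 0.0161, so these values showed no pairing by number. Whether same-numbered clones share an origin cannot be told from them. Over all probe sets 1 passed in eBayes without the trend, and 3 of 13125 genes did with 1 probe set per gene after the 40% filter. Calcoco2, Sp110, Tcstv1, Zfp352, the brighter Arg2 and the shared Zscan4 probe set kept their sign in all alternatives run for them, but not their size: leaving out 1 clone at a time gave -0.907 to -0.193 for Sp110 1429562_at, -0.433 to -0.187 for Sp110 1429563_x_at, -0.263 to -0.100 for Sp110 1456493_at, 0.002 to 0.301 for Arg2 1418847_at, 0.021 to 0.323 for Tcstv1, 0.246 to 0.535 and 0.018 to 0.289 for Zfp352, -0.342 to -0.150 for Calcoco2 and -0.503 to -0.089 for the shared Zscan4 probe set. The sign of the log2 difference turned under quantile normalization for Ddit4l 1439332_at (0.003), under median centring for Ddit4l 1439332_at (0.030) and 1444139_at (0.024), and with a pseudocount of 1 for Tcstv3 (-0.088). With 1 clone left out at a time, the log2 difference was -0.058 to 0.114 for Arg2 1438841_s_at and -0.062 to 0.142 for Ddit4l 1439332_at. It was -0.075 to 0.133 for Ddit4l 1444139_at, -0.314 to 0.005 for Ddit4l 1451751_at and -0.184 to 0.286 for Tcstv3 1451852_at. The count of relations with the shared Zscan4 probe set past the threshold was 1, and it stayed 1 without each clone in turn. As deviations from group means it was 2, where Ddit4l passed as well (r = 0.969), by a permutation that did not allow for the centring. Calcoco2 kept r between 0.908 and 0.976. The r of Arg2 turned to 0.047 under quantile normalization, to 0.116 as deviations and to 0.123 with each gene's probe sets averaged; that of Sp110 to -0.008 as deviations and to -0.356 with that average; and that of Zfp352 to -0.051 with that average. Leaving out 1 clone at a time, r was -0.296 to 0.424 for Arg2, -0.568 to 0.167 for Tcstv1 and -0.108 to 0.143 for Zfp352. The causes were not tested.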

Other observations

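Usp17la, a deubiquitinase gene of the 2-cell programme and 1 of the 2 further transcripts above the dim limit, was chosen here after its values were seen. It read 177, 148, 174 and 102 in clones 1 to 4 with ascorbic acid and 176, 173, 176 and 109 without. The clones numbered 4 were the lowest in both groups, while the other 6 lay between 148 and 177. The shared Zscan4 probe set was also lowest in the clones numbered 4 of each group, at 106 with ascorbic acid and 223 without. Its 223 lay within the 218 to 303 of the other 6 clones.

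AF067061 and Zfp352 had similar orders of clones, both highest in clone 2 with ascorbic acid. Over 8 clones the Pearson r was 0.828 (exact permutation p = 0.0183, adjusted 0.128 over the 7 relations of Zfp352 with other 2-cell transcripts), and the Spearman rho 0.690 (exact permutation p = 0.0694, adjusted 0.291). Neither passed after adjustment, and without the 2 clones farthest from the Zfp352 median r was 0.606 (exact permutation p = 0.212). The relation was looked at after the values were seen.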
